A study of Apis mellifera with 36 samples.

Results

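Female embryos were compared with male embryos of the honeybee, Apis mellifera, at 48 h after egg laying (AEL). The comparison takes in 12 of the 36 embryos of the series, 6 females and 6 males, chosen by the sex, queen and time in their labels and by no measured value. Each library is the RNA of 1 whole embryo. The females were worker embryos from small cells, 3 laid by queen 1 (P1) and 3 by queen 2 (P2), and the males were drone embryos from large cells, 3 laid by each of the same queens. The labels put the offspring of the queens in separate batches, so queen and batch cannot be told apart. Sex was read by the study from the cell in which an egg lay, embryos of 1 queen share a mother, and p-values measure only the spread between these embryos.

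In bees, wasps and ants, fertilized eggs are diploid and become females, and unfertilized eggs are haploid and become males. A young embryo of either sex runs on RNA that the mother placed in the egg. During the maternal-to-zygotic transition these maternal RNAs are repressed and degraded while the embryo's own genome is switched on, beginning with the genes that lay out the body axes. In Drosophila, where this was worked out, gap genes divide the embryo into broad regions, pair-rule genes draw the segments, and Hox genes give each segment its identity. The egg also carries RNA of germline genes, such as those of the piRNA pathway, which silences transposable elements in germ cells. The comparison at 48 h AEL asks which of these programs differed between diploid and haploid embryos, and whether the offspring of both queens gave the same answer.

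The tables list 12365 genes. Counts per embryo added up to between 5503556 and 7944906 in females and between 3222023 and 7572141 in males, which is 57.7% to 64.4% of the library totals behind the RPKM values in females and 46.1% to 67.0% in males. Reads were counted in 87.0% ± 0.871 of the listed genes in females and in 76.2% ± 1.69 in males (SD, n = 6 each; two-sided exact permutation p = 0.00216). Within queen 1 and within queen 2 the same exact permutation test gave p = 0.1, the smallest value that 3 embryos against 3 allow. After every library was thinned to 3222023 counts the shares were 84.3% ± 0.615 in females and 74.4% ± 0.664 in males (SD, n = 6 each). Thinning matched the total of deposited counts, not the library total. Across genes, log2(CPM + 1) values correlated at 0.973 to 0.987 (Pearson) between females and at 0.930 to 0.986 between males, against 0.617 to 0.651 between a female and a male. The first principal component held 88.8% of the variance among the 12 embryos and separated the sexes.

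Male embryo 6 of queen 1 stood apart from the other males. It lay far out on the second principal component (4.74% of the variance), and 67.0% of its library was listed, compared with 46.1% to 54.7% in the other 5 males. The single most abundant gene, LOC100578903, took 14.4% of its counts, compared with 5.81% to 9.24% in the other males and 12.4% to 16.03% in females. Long non-coding RNA (lncRNA) genes took 2.58% of its counts, compared with 4.94% to 8.44% in the other males. Where leaving this embryo out moved a list median given here by over 1.5 times, or turned a majority of calls, both values are given with the list. None of the 12 pairs of libraries of the same queen and sex agreed within sampling noise, and none was counted as a duplicate.

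At 48 h AEL most of the measurable transcriptome differed between female and male embryos. Of 8901 genes with enough counts to test, 3019 (33.9%) were higher in females and 2454 (27.6%) were lower, together 61.5%, in an edgeR fit with queen as a term, where a call needed an adjusted p below 0.05 and a change of more than 1 on the log2 scale. The median log2 fold change (female over male) over all tested genes was 0.20. Fitted within queen 1 alone, 2794 genes (32.6%) were higher and 2342 (27.3%) lower of 8569 (59.9% together), and within queen 2 alone 2873 (33.1%) were higher and 2356 (27.1%) lower of 8687 (60.2% together). Of 8431 genes tested in both queens, 2487 (29.5%) were called higher in females in each queen, 2072 (24.6%) lower in each, and 0 in opposite directions. An interaction term of sex and queen called 0 of 9066 genes (edgeR, percent called 0.0), while 364 had an unadjusted p under 0.05. The split between higher and lower depended on scaling. With TMM factors, which set the middle of the distribution level, 55.2% of called genes were higher in females. With the totals of the deposited counts 69.1% were higher (4019 higher, 1794 lower, median log2 fold change 0.77), and with the library totals behind the RPKM values 73.9% (4415 higher, 1563 lower, median 0.99). Fold changes below are relative to the TMM scale. In RNA from a whole embryo, fewer cells of a type and less RNA per cell cannot be told apart.

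**Figure D1:**
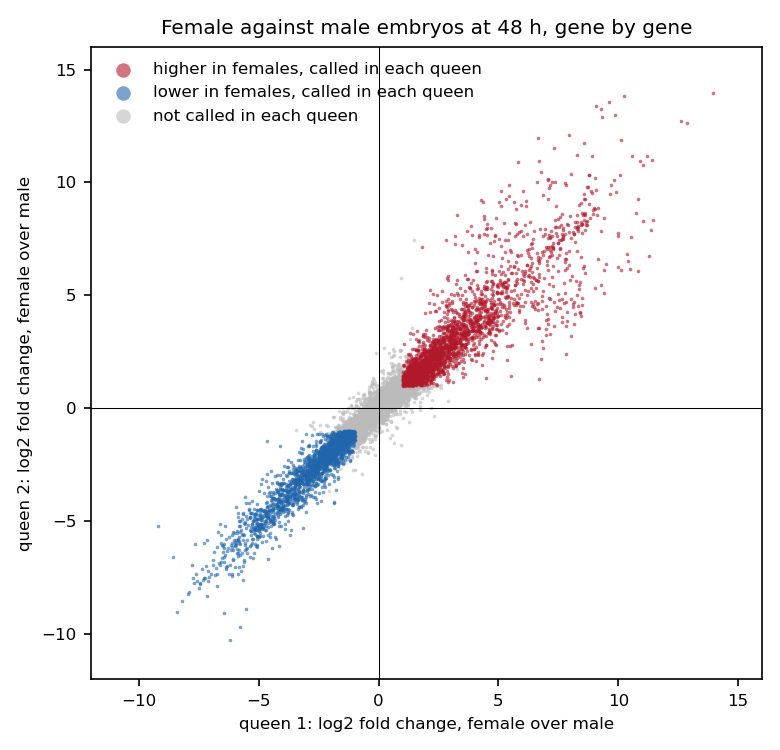
Each point is 1 gene tested in both queens. The x axis gives the log2 fold change, female over male, in the embryos of queen 1 and the y axis that in the embryos of queen 2. Genes called higher in females in each queen (2487) lie in the upper right, genes called lower in each (2072) in the lower left, and 0 genes were called in opposite directions.

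Requiring a call in the joint fit, a call in each queen and no overlap between the 6 females and the 6 males left 2437 genes higher (27.4% of those tested) and 1958 lower (22%). The higher set held 1706 protein-coding genes with a described product, 475 uncharacterized ones and 244 lncRNA genes, and the lower set held 1293, 444 and 207. An absolute log2 fold change over 3 was reached by 1068 higher and 742 lower genes, and one over 5 by 431 and 217. The higher genes had a median exon length of 2140 bases and 6 exons, the lower genes 2530 bases and 7 exons, and all tested genes 2220 bases and 6 exons. The strand used in counting is not given in the sources used here, and 34.2% of the higher and 38.8% of the lower genes overlap a gene on the opposite strand, next to 34.7% of all tested genes. For those genes, 35 of the 121 named in this account, reads of the opposite gene may be included. In the values that follow, CPM are counts scaled to a library of 1000000 with TMM factors and 3 values per sex are the lowest, the median and the highest of 6 embryos. Genes named below, except 29 of the 121, were chosen by a rule that required no overlap between the sexes. For genes so chosen, a remark that the sexes did not overlap restates that choice. Calls in each list are to be read against the 33.9% higher and 27.6% lower of all tested genes.

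Segmentation genes differed between the sexes by large factors. Orthologues of several Drosophila pair-rule genes had many reads in every female and none or next to none in the males. Of 11 listed pair-rule and segment polarity genes 8 could be tested: 7 were higher, 0 were lower and 1 was not called, with a median log2 fold change of 9.40, against 33.9% higher, 27.6% lower and a median of 0.20 over all tested genes. LOC726124, a run-like transcription factor (assembly Amel_4.5, linkage group 14, bases 7853875 to 7858279, minus strand), had 193, 345 and 522 CPM in females, with no count in any of the 6 males. Against 3 counts per male library its level in females was at least 430.5-fold higher (edgeR adjusted p = 2.97e-10). An odd-skipped-like zinc finger gene, LOC725053, had 110.4, 142 and 191 CPM in females, with no count in any of the 6 males, at least 176-fold higher in females. Both genes were therefore read in every female and in no male.

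The hairy gene h, a repressor of the bHLH family, had 134, 184 and 216 CPM in females, against 0, 0 and 0.637 CPM in males. All its male counts came from 1 embryo, male 8 of queen 1, and the ratio of summed levels, females to males, was 2101 (95% exact counting interval 582 to 17354). Prd, the segmentation protein paired, had 25.3, 51.5 and 75.2 CPM in females, against 0, 0 and 0.319 CPM in males, a ratio of 1195 (95% exact counting interval 214 to 47225). The forkhead factor slp, sloppy paired-like, had 56.7, 89.3 and 98.3 CPM in females, against 0, 0 and 0.637 CPM in males, a ratio of 677 (95% exact counting interval 231 to 3282). These genes did not overlap between the sexes. The segment polarity gene En, engrailed, was low, with 1.44, 2.95 and 5.01 CPM in females, with no count in any of the 6 males, at least 3.75-fold higher in females, and it could be tested in queen 1 only. A gene for a patched-like receptor of Hedgehog, LOC100576449, had 77.3, 117 and 139 CPM in females, against 9.95, 41.3 and 58.6 CPM in males (log2 fold change 1.64, SE 0.30, edgeR adjusted p = 9.56e-05). The exception among the 8 was eve, the segmentation protein even-skipped, which had 167, 187 and 255 CPM in females, against 79.8, 291 and 384 CPM in males (log2 fold change -0.36, SE 0.26, edgeR adjusted p = 0.213). Its male values spanned the female range, and the gene was not called in either queen.

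Upstream of the pair-rule genes the picture was mixed. Of 9 gap and anterior-posterior axis genes, 4 were higher (44.4%), 1 was lower (11.1%) and 4 were not called, with a median log2 fold change of 0.27. Kr (krueppel), a zinc finger repressor of the gap class on linkage group 6 from 9401120 to 9412414, had 349, 559 and 620.0 CPM in females, against 4.57, 16.3 and 20.6 CPM in males (log2 fold change 5.10, SE 0.27, edgeR adjusted p = 4.59e-11). The difference was 5.10 in queen 1 and 5.09 in queen 2, so the offspring of both queens gave nearly the same value. The head gap factors otd2 and LOC724297, homeobox proteins of the orthodenticle class, were higher in females as well. The first had 84.0, 99.0 and 142 CPM in females, against 6.53, 9.59 and 12.4 CPM in males (log2 fold change 3.54), and the second had 19.5, 23.6 and 32.5 CPM in females, against 6.86, 8.71 and 12.01 CPM in males (log2 fold change 1.43). Another gene of the class, otd1, went the other way with 18.4, 24.8 and 31.4 CPM in females, against 28.1, 59.3 and 75.1 CPM in males (log2 fold change -1.25, SE 0.20, edgeR adjusted p = 2.22e-05), and its ranges overlapped between the sexes. The bZIP factor gt, giant, had 401, 639 and 814 CPM in females, against 94.5, 146 and 354 CPM in males (log2 fold change 1.77). The posterior factor cad, caudal, had 282, 319 and 381 CPM in females, against 262, 495 and 636 CPM in males (log2 fold change -0.58, SE 0.18, edgeR adjusted p = 0.0077) and was not called.

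The Hox genes did not move together. Of 7 listed 5 could be tested: 1 was higher, 3 were lower and 1 was not called, with a median of -2.04. Dfd, deformed, which specifies gnathal segments in Drosophila, had 234, 450.03 and 803 CPM in females, against 0, 0.624 and 1.79 CPM in males (log2 fold change 9.16, SE 0.42, edgeR adjusted p = 1.05e-11). Every female was far above every male. By contrast, Ubx (ultrabithorax), which acts in the trunk, had 1.15, 4.14 and 8.62 CPM in females, against 32.8, 84.7 and 101.1 CPM in males (log2 fold change -4.24, SE 0.32, edgeR adjusted p = 3.18e-09). Antp, antennapedia, had 2.08, 3.43 and 19.6 CPM in females, against 10.9, 33.6 and 38.8 CPM in males (log2 fold change -2.23). A single female reached into the male range for Antp, while the sexes did not overlap for Ubx. Labial, lab, an anterior Hox gene, had 0, 0.696 and 0.978 CPM in females, against 1.43, 2.76 and 4.22 CPM in males (log2 fold change -2.04), with too few counts to test in either queen alone. Scr, sex combs reduced, had 24.6, 29.01 and 47.9 CPM in females, against 20.2, 73.7 and 86.0 CPM in males (log2 fold change -0.94, SE 0.28, edgeR adjusted p = 0.00525), short of the fold threshold, and was called when male 6 of queen 1 (log2 fold change -1.12) or male 29 of queen 2 (-1.04) was left out.

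**Figure D2:**
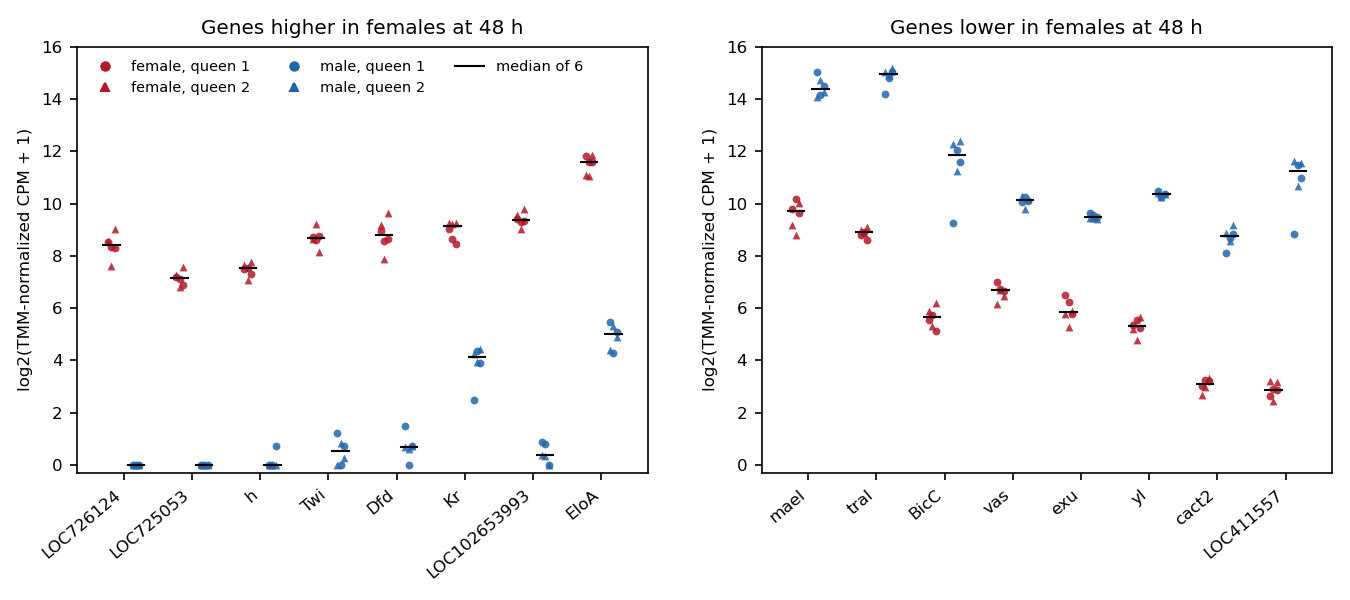
Each point is 1 embryo at 48 h AEL, with females left of males for every gene, circles for queen 1 and triangles for queen 2. The y axis gives log2(CPM + 1), CPM on the TMM scale. Black lines are medians of 6. The left panel holds 8 transcription genes higher in females, where males of LOC726124 and LOC725053 sit at 0. The right panel holds 8 genes lower in females. The sexes overlap in none of the 16 genes, which the rule for naming genes required.

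Among 16 genes of the dorsoventral axis and mesoderm, 15 could be tested and 6 were higher, 5 were lower and 4 were not called, with a median of -0.29, which turned positive when libraries were scaled by their totals. Without male 6 of queen 1 the counts were 4 and 4, and without female 7 of queen 1 they were 6 and 3. Twi (twist), the bHLH factor that starts mesoderm formation in Drosophila, had 285, 412 and 592 CPM in females, against 0, 0.424 and 1.31 CPM in males (log2 fold change 9.47, SE 0.37, edgeR adjusted p = 1.80e-12). Single-minded, sim, a midline factor, had 5.42, 11.9 and 19.6 CPM in females, against 0, 0.427 and 1.47 CPM in males (log2 fold change 4.22), and the muscle determination factor nau, nautilus, had 1.03, 1.83 and 2.51 CPM in females, with no count in any of the 6 males, at least 2.26-fold higher, and it could be tested in queen 2 only. The opposite was seen for cact2, NF-kappa-B inhibitor cactus 2 of the Toll pathway, with 5.45, 7.60 and 8.96 CPM in females, against 276, 432 and 574 CPM in males (log2 fold change -5.83, SE 0.21, edgeR adjusted p = 7.14e-13). The fibroblast growth factor receptor htl, heartless, was lower in females too, with 15.03, 17.5 and 32.01 CPM in females, against 65.3, 119.7 and 133 CPM in males (log2 fold change -2.52). The kinase pelle, which acts downstream of Toll, had 61.5, 67.2 and 81.9 CPM in females, against 9.25, 13.9 and 18.4 CPM in males (log2 fold change 2.32). Thus 2 members of the same signalling chain, pelle and cact2, were called in opposite directions. The BMP ligand dpp, decapentaplegic, had 77.5, 90.9 and 114 CPM in females, against 94.1, 126 and 200.4 CPM in males (log2 fold change -0.53, SE 0.16, edgeR adjusted p = 0.00651) and was not called. In the Toll and immune list as a whole, of 15 tested 4 were higher, 6 were lower and 5 were not called.

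Other developmental transcription factors included some of the largest differences between the sexes. Of 12 tested forkhead, T-box, Sox, GATA and bHLH factors, 6 were higher, 2 were lower and 4 were not called, with a median of 1.48 that was 0.15 without male 6 of queen 1. LOC102653993, a dichaete-like SOX protein of the class that acts in segmentation and the early nervous system, had 517, 657 and 881 CPM in females, against 0, 0.286 and 0.816 CPM in males (log2 fold change 10.75, SE 0.34, edgeR adjusted p = 2.49e-13). LOC100578067, an enhancer of split-like repressor of the Notch pathway, had 28.6, 39.4 and 57.8 CPM in females, against 0, 0.495 and 0.816 CPM in males (log2 fold change 6.20). A GATA-2-like factor, LOC100577332, had 16.04, 19.4 and 26.6 CPM in females, against 0.653, 1.51 and 3.19 CPM in males (log2 fold change 3.73), and a TBX5-like factor, LOC410885, had 10.6, 15.05 and 25.2 CPM in females, against 0, 0.676 and 1.32 CPM in males (log2 fold change 4.49). In each of these genes the lowest female was above the highest male.

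Of 17 tested homeobox genes outside the Hox cluster, 6 were higher (35.3%), 4 were lower (23.5%) and 7 were not called. This majority turned to 5 higher and 7 lower of 21 tested without male 6 of queen 1. The head factor hbn, homeobrain, had 139, 218 and 227 CPM in females, against 0, 0 and 0.490 CPM in males (log2 fold change 10.05, SE 0.35, edgeR adjusted p = 5.01e-13). LOC100576220, rough-like, had 6.56, 10.9 and 16.9 CPM in females, with no count in any of the 6 males, at least 13.6-fold higher in females. Zinc finger proteins as a family were split, with 32 higher (27.1%), 36 lower (30.5%) and 50 not called of 118 tested. More were higher than lower when libraries were scaled by their totals. LOC100578920, product zinc finger protein 726-like, had 233, 369 and 531 CPM in females, against 0, 0 and 0.653 CPM in males (log2 fold change 10.98, SE 0.40, edgeR adjusted p = 8.56e-13), with all male counts in male 6 of queen 1.

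The signalling pathways held members that differed in opposite directions, in shares near those of all tested genes. Of 33 tested Wnt, Hedgehog, BMP, Notch and EGF genes, 12 were higher, 9 were lower and 12 were not called. That is 36.4% higher and 27.3% lower, against 33.9% and 27.6% of all tested genes. The median was 0.25, which was 0.15 without male 6 of queen 1. LOC550976, an armadillo-like gene of the Wnt pathway, had 14.6, 15.9 and 19.3 CPM in females, with no count in any of the 6 males, at least 20.5-fold higher in females. LOC102654710, an epidermal growth factor receptor-like gene, had 6.99, 9.69 and 12.5 CPM in females, with no count in any of the 6 males, at least 11.9-fold higher. In contrast LOC726936, a rhomboid-like gene of the class of proteases that release EGF ligands in Drosophila, had 1.36, 3.90 and 5.23 CPM in females, against 232, 289 and 367 CPM in males (log2 fold change -6.33, SE 0.25, edgeR adjusted p = 2.06e-12). The Notch ligand Ser, serrate, had 7.84, 14.6 and 16.7 CPM in females, against 141, 276 and 310.5 CPM in males (log2 fold change -4.23), and its lowest male was male 6 of queen 1.

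Most germline and piRNA genes were lower in females, and none was called higher. Of 14 tested, 0 were higher, 10 were lower and 4 were not called, with a median of -2.64. All 10 were lower in each queen without overlap between the sexes, and the number was also 10 under each of 4 other scalings. The summed level of the list was 2112 to 3141 CPM in females, against 27480 to 39990 CPM in males. Most of it came from mael (maelstrom, linkage group 8 from 9668509 to 9676227), a nuclear protein of the piRNA pathway, with 446, 849 and 1162 CPM in females, against 17305, 21498 and 33876 CPM in males (log2 fold change -4.84, SE 0.26, edgeR adjusted p = 5.89e-11). BicC, bicaudal C, an RNA-binding protein of the oocyte, had 33.7, 49.1 and 71.8 CPM in females, against 614, 3679 and 5359.6 CPM in males (log2 fold change -6.08, SE 0.42, edgeR adjusted p = 1.12e-09), and its lowest male was still above every female.

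The DEAD-box helicase vas (vasa), a standard germline marker, had 70.0, 101.9 and 127 CPM in females, against 897, 1120.2 and 1239.9 CPM in males (log2 fold change -3.50, SE 0.15, edgeR adjusted p = 6.17e-12). The piRNA-binding Argonautes gave the same direction at lower levels: aub (aubergine) had 30.6, 34.2 and 36.5 CPM in females, against 126, 247 and 341 CPM in males (log2 fold change -2.84), and Ago3 had 1.06, 3.31 and 4.27 CPM in females, against 15.6, 21.7 and 41.1 CPM in males (log2 fold change -3.06). The RNA localization factor exu, exuperantia, had 37.4, 56.5 and 90.1 CPM in females, against 678, 709.8 and 794 CPM in males (log2 fold change -3.58), and gcl, germ cell-less, had 73.2, 88.1 and 97.6 CPM in females, against 333, 391 and 482 CPM in males (log2 fold change -2.20). No female reached any male in these genes. A tudor domain-containing protein 7-like gene, LOC726241, had 25.02, 28.4 and 32.4 CPM in females, against 369, 395 and 426 CPM in males (log2 fold change -3.80). The related LOC551474, with tudor and KH domains, had 27.3, 28.9 and 33.3 CPM in females, against 78.0, 101.8 and 139 CPM in males (log2 fold change -1.85), and a second maelstrom-like gene, LOC100576828, had 18.9, 56.9 and 76.9 CPM in females, against 152, 301 and 475 CPM in males (log2 fold change -2.45). Not called were the posterior determinant nanos, with 36.3, 39.6 and 54.5 CPM in females, against 26.1, 53.9 and 69.0 CPM in males (log2 fold change -0.23, SE 0.19, edgeR adjusted p = 0.264), and the RNA carrier stau, staufen, with 592, 643 and 853 CPM in females, against 809, 838 and 2138 CPM in males (log2 fold change -0.60, SE 0.20, edgeR adjusted p = 0.0124). Male 6 of queen 1 was the highest male for stau at 2138 CPM, with the next at 872.

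The repressors tral and me31b were lower in females, while some decay factors were higher. Of 32 tested genes of mRNA decay and translational repression, 7 were higher, 13 were lower and 12 were not called, with a median of -0.34, and the majority turned when libraries were scaled by their totals. The repressor tral (trailer hitch, linkage group 10 from 3107572 to 3113566) had 389, 478 and 555 CPM in females, against 18834, 32354 and 37762 CPM in males (log2 fold change -6.003, SE 0.20, edgeR adjusted p = 3.19e-13). Its partner in Drosophila, the helicase me31b (LOC552206), had 168, 173 and 195 CPM in females, against 1997, 2674 and 3536 CPM in males (log2 fold change -3.93, SE 0.15, edgeR adjusted p = 1.80e-12). In contrast the nonsense-mediated decay helicase Upf1 had 439, 478 and 569 CPM in females, against 40.1, 75.5 and 116 CPM in males (log2 fold change 2.70), and LOC413177, a CCR4-NOT subunit 6-like deadenylase, had 23.5, 36.1 and 47.2 CPM in females, against 0.716, 1.34 and 4.21 CPM in males (log2 fold change 4.21). The list's sum was 5525 to 6423 CPM in females, against 30410 to 52490 CPM in males. Most of the male sum came from tral.

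Histone genes had lower counts in females, with exceptions. They took 1.16% ± 0.122 of all counts in females, against 3.24% ± 0.361 in males (SD, n = 6 each; two-sided exact permutation p = 0.00216, adjusted over 6 shares 0.00325; 0.1 within each queen, the smallest possible). Of 21 tested core and linker histone genes, 4 were higher, 12 were lower and 5 were not called, with a median of -1.55 and no change of majority under the other scalings. LOC102655073, a histone H4-like gene, had 116, 253 and 289 CPM in females, against 6050.3, 7349 and 9814 CPM in males (log2 fold change -5.07, SE 0.26, edgeR adjusted p = 3.02e-11). LOC100577833, a linker histone H1-like gene, had 380.1, 520.0 and 623 CPM in females, against 6823, 8199 and 14828 CPM in males (log2 fold change -4.18), and LOC726487, a histone H2B-like gene, had 1159, 1754 and 2078 CPM in females, against 7934, 11669.9 and 13319.7 CPM in males (log2 fold change -2.76). The reverse was seen for LOC726692 (linkage group 14 from 5907651 to 5909822), histone H3.3-like, the variant placed into chromatin outside replication, with 2889.6, 3564 and 5342 CPM in females, against 26.5, 29.8 and 95.5 CPM in males (log2 fold change 6.53, SE 0.35, edgeR adjusted p = 6.50e-11). Another H2B-like gene, LOC725344, had 10.6, 12.2 and 15.5 CPM in females, against 0, 0.313 and 1.07 CPM in males (log2 fold change 5.13). Many histone genes are near-identical copies, and only unambiguously aligned reads were kept by the authors, so the count of a single copy is uncertain. The same limit holds for related chemosensory protein and ABC transporter genes. The authors report that poly(A) tails lengthened over time in male but not in female embryos. Whether tail length affected the counts of histone genes was not tested.

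**Figure D3:**
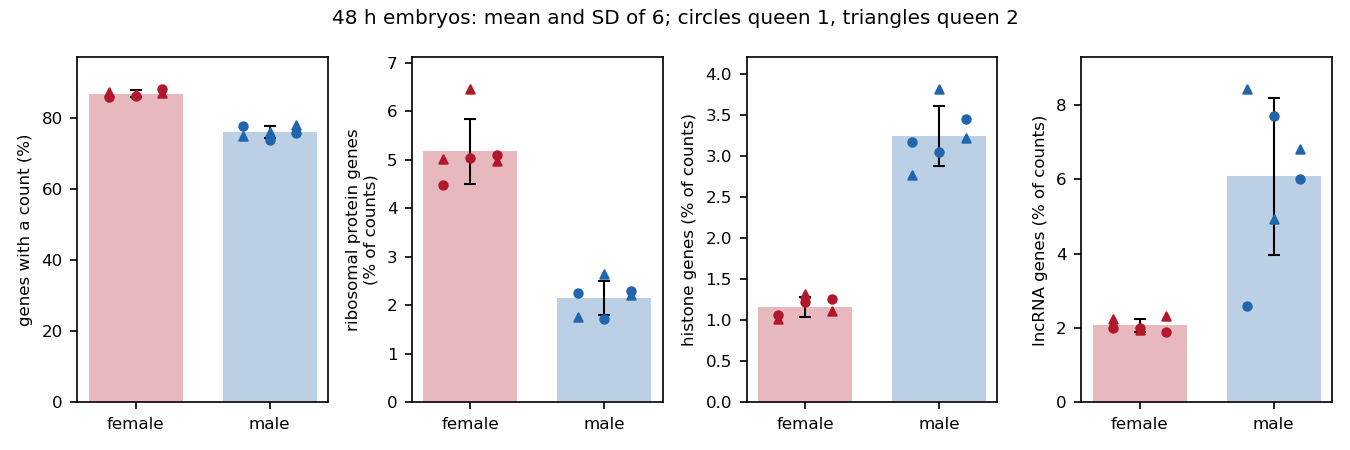
Bars are means and error bars SDs of 6 embryos at 48 h AEL, females left of males in each of 4 panels, with circles for queen 1 and triangles for queen 2. The y axes start at 0 and give the percentage of the 12365 listed genes with a count, then the percentage of all counts on cytosolic ribosomal protein, histone and lncRNA genes. The sexes do not overlap in any panel, and 1 male, male 6 of queen 1, lies closest to the females in the lncRNA panel. Most of the difference in that panel came from LOC102654857 and LOC102655096.

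The cell cycle list had 19 higher (27.5%), 17 lower (24.6%) and 33 not called of 69 tested and a median of 0.15. Under totals of deposited counts 31 were higher and 11 lower, and under library totals 33 and 11. Without male 29 of queen 2, 18 were higher and 19 lower. Its members differed by large amounts in both directions. Centrosomin, cnn, which builds the pericentriolar material, had 1143, 1346 and 1458 CPM in females, against 39.5, 55.7 and 75.2 CPM in males (log2 fold change 4.58, SE 0.19, edgeR adjusted p = 2.86e-12), while the mitotic cyclin CycB3 had 93.1, 105 and 115 CPM in females, against 668, 1024 and 1218 CPM in males (log2 fold change -3.28, SE 0.16, edgeR adjusted p = 1.38e-11). In DNA replication and repair, of 69 tested 11 were higher, 25 were lower and 33 were not called, with a median of -0.49, a majority that turned under both scalings by totals, to 22 higher and 19 lower under totals of deposited counts and to 26 and 17 under library totals. The helicase subunit Mcm7 had 18.8, 21.9 and 23.5 CPM in females, against 145, 153 and 257 CPM in males (log2 fold change -2.99). DNApol-alpha73, subunit B of the primase-carrying polymerase alpha, had 37.2, 39.4 and 73.7 CPM in females, against 1.31, 3.43 and 5.06 CPM in males (log2 fold change 3.91). Of 62 tested chromatin regulators, 19 were higher (30.65%), 11 were lower (17.7%) and 32 were not called. Pc, polycomb, which holds Hox genes silent in Drosophila, had 41.6, 46.4 and 63.6 CPM in females, against 266, 365 and 488 CPM in males (log2 fold change -2.94). Of 4 tested DNA methylation genes, 3 were higher, 0 were lower and 1 was not called: Dnmt1.1, a maintenance methyltransferase, had 30.6, 39.6 and 47.1 CPM in females, against 10.1, 12.5 and 18.2 CPM in males (log2 fold change 1.55), and Dnmt2, known as a tRNA methyltransferase, had 10.6, 12.996 and 16.1 CPM in females, against 2.74, 4.15 and 6.53 CPM in males (log2 fold change 1.62).

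Of 59 tested genes of RNA polymerase II and the general factors, 27 were higher, 9 were lower and 23 were not called, with a median of 0.69 (45.8% higher and 15.3% lower, against 33.9% and 27.6% of all tested genes). EloA, elongin A, which raises the speed of RNA polymerase II, had 2121, 3094 and 3726 CPM in females, against 18.2, 31.1 and 43.7 CPM in males (log2 fold change 6.58, SE 0.27, edgeR adjusted p = 2.52e-12). LOC102654012, transcription elongation factor 1 homolog, had 279, 362 and 422 CPM in females, against 0, 0.105 and 5.38 CPM in males (log2 fold change 8.14, SE 0.55, edgeR adjusted p = 8.04e-10), and its highest male, male 6 of queen 1, stood above the other 5, which reached at most 0.319 CPM. The polymerase subunit RPB7-like gene LOC552599 had 74.0, 87.3 and 104 CPM in females, against 0, 1.72 and 2.86 CPM in males (log2 fold change 5.93). Splicing genes had 18 higher, 6 lower and 30 not called of 54 tested and a median of 0.46, and their share of higher calls, 33.3%, was near that of all tested genes, while 11.1% were lower. In both lists higher calls outnumbered lower calls under all 4 other scalings.

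Cytosolic ribosomal protein genes took 5.18% ± 0.668 of counts in females, against 2.15% ± 0.351 in males (SD, n = 6 each; two-sided exact permutation p = 0.00216, adjusted over 6 shares 0.00325; 0.1 within each queen). Of 75 tested, 36 were higher, 1 was lower and 38 were not called, with a median of 0.95 (48.0% higher, against 33.9% of all tested genes). The single lower call was lost without male 8 of queen 1, or without female 18, female 29 or male 29 of queen 2, and it was joined by another without male 6 of queen 1. RpL15 of the large subunit had 246, 284 and 348 CPM in females, against 6.78, 11.8 and 17.4 CPM in males (log2 fold change 4.56, SE 0.22, edgeR adjusted p = 1.31e-11), and RpS20 of the small subunit had 493, 543 and 746 CPM in females, against 20.04, 27.3 and 34.97 CPM in males (log2 fold change 4.37, SE 0.17, edgeR adjusted p = 1.27e-12). Of 15 tested mitochondrial ribosomal proteins, 2 were higher, 3 were lower and 10 were not called, a majority that turned under 3 of 4 other scalings, and they took 0.149% ± 0.0107 of counts in females, against 0.105% ± 0.0241 in males (SD, n = 6 each; two-sided exact permutation p = 0.00649, adjusted over 6 shares 0.00779), with ranges that overlapped between the sexes. Of 34 translation factors, 15 were higher, 3 were lower and 16 were not called, with a median of 0.60, and LOC551242, an initiation factor 3 subunit E-like gene, had 73.5, 77.5 and 91.5 CPM in females, against 2.77, 4.25 and 4.90 CPM in males (log2 fold change 4.29). Of 36 tRNA ligases, 11 were higher, 2 were lower and 23 were not called (30.6% higher).

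Of 37 tested proteasome genes, 18 were higher, 3 were lower and 16 were not called, with a median of 0.95 (48.6% higher and 8.11% lower, against 33.9% and 27.6% of all tested genes). Prosalpha7, of the core particle, had 639, 771 and 1017 CPM in females, against 62.3, 95.9 and 127 CPM in males (log2 fold change 3.10, SE 0.18, edgeR adjusted p = 1.07e-10). Of 120 tested ubiquitin ligases, 32 were higher, 21 were lower and 67 were not called, and both shares, 26.7% and 17.5%, were below those of all tested genes. Heat shock proteins and chaperones had 9 higher, 16 lower and 25 not called of 50 tested, a majority that turned under both scalings by totals.

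Nuclear genes of oxidative phosphorylation had 20 higher, 4 lower and 27 not called of 51 tested and a median of 0.75. ATP5G2, a subunit of the ATP synthase ring, had 103, 105 and 139.9 CPM in females, against 5.10, 7.10 and 10.8 CPM in males (log2 fold change 3.97, SE 0.19, edgeR adjusted p = 1.44e-11). SdhA, the flavoprotein of succinate dehydrogenase, was among the lower members with 34.02, 41.4 and 49.3 CPM in females, against 80.9, 97.3 and 118 CPM in males (log2 fold change -1.25), and its call was lost under scaling by the totals of deposited counts (-0.66) and by library totals (-0.46). In glycolysis and the citric acid cycle, of 31 tested 7 were higher, 9 were lower and 15 were not called, a majority that turned under both scalings by totals. Mdh, malate dehydrogenase, had 179, 231 and 248 CPM in females, against 3.59, 10.9 and 30.3 CPM in males (log2 fold change 4.14, SE 0.38, edgeR adjusted p = 3.49e-08). Hexokinase, LOC408818, which starts glycolysis, had 4.59, 4.91 and 7.37 CPM in females, against 133, 211 and 281 CPM in males (log2 fold change -5.30, SE 0.22, edgeR adjusted p = 2.64e-12). A far larger difference was that of LOC410791, a carrier of the uncoupling protein 2 type, with 81.8, 100.4 and 135 CPM in females, against 8660.4, 22789 and 33781 CPM in males (log2 fold change -7.73, SE 0.30, edgeR adjusted p = 1.44e-12). Its lowest male was far above its highest female. In lipid metabolism, of 113 tested 31 were higher, 42 were lower and 40 were not called, and here both the median, -0.03 (-0.06 without male 6 of queen 1), and the majority changed side with scaling. Genes of the mitochondrial genome itself, 3 of which are listed, took 0.00724% of counts in females and 0.0109% in males (means of 6; exact permutation p = 0.0325), and the p stayed under 0.05 in 4 of 12 cases in which 1 embryo was left out.

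**Figure D4:**
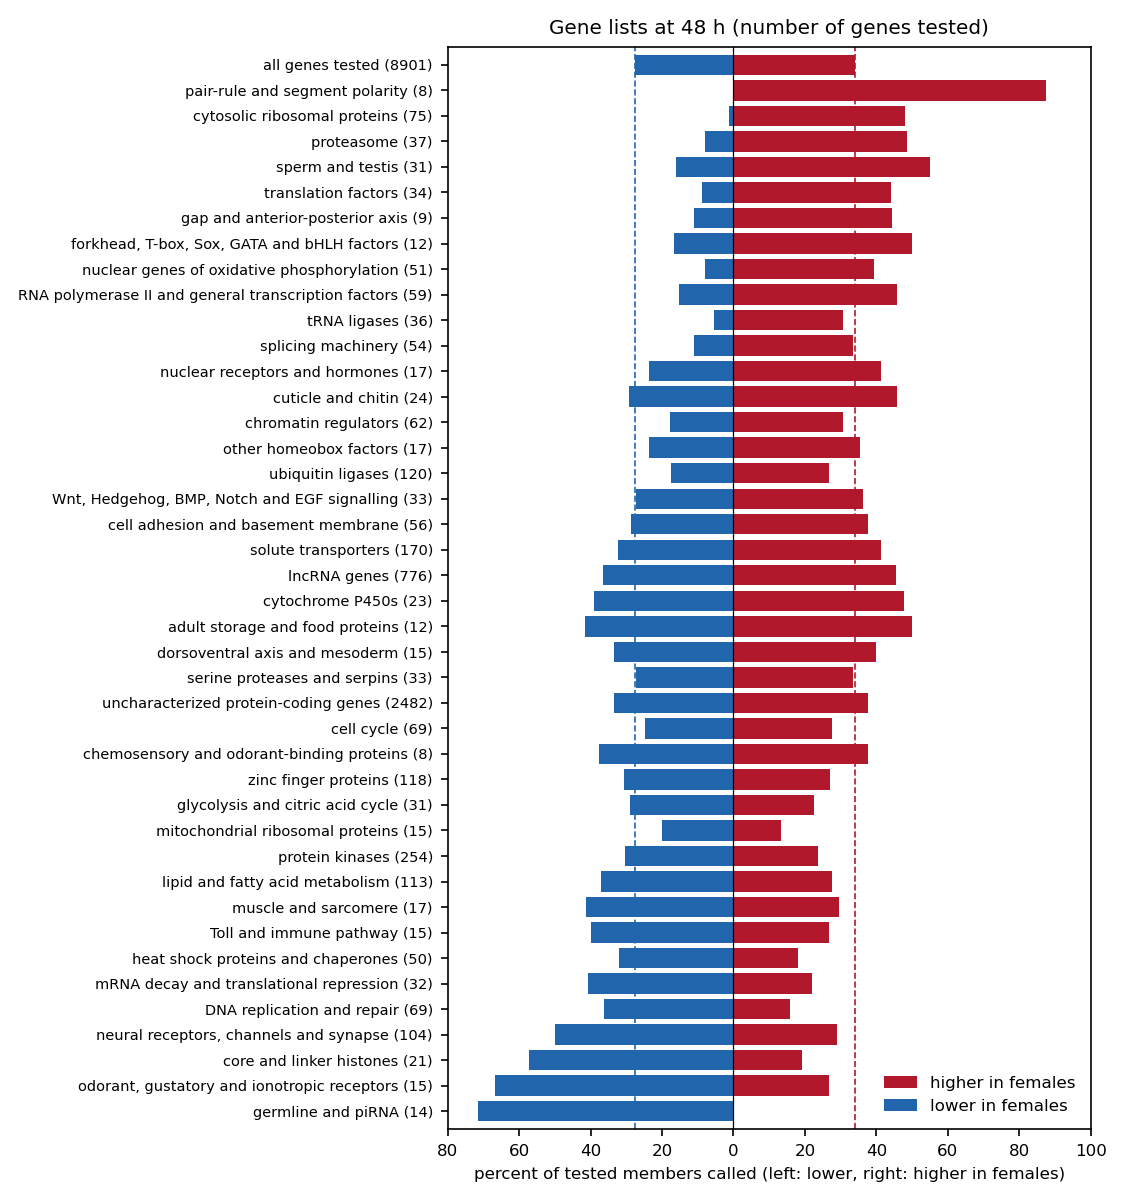
Bars give, for each gene list, the percentage of its tested genes called higher in females (right) and lower in females (left), with the number tested in parentheses. Dashed lines mark all 8901 tested genes, 33.9% higher and 27.6% lower. The list labelled uncharacterized protein-coding genes also holds lncRNA genes. Pair-rule genes lie furthest to the right (7 of 8), and germline and piRNA genes hold 10 lower and 0 higher of 14.

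Genes known from differentiated tissues were measurable at 48 h and differed in both directions. Of 104 tested neural receptor, channel and synapse genes, 30 were higher, 52 were lower and 22 were not called, with a median of -1.02, and 1 of 4 other scalings turned the majority. The list's sum was 3213 to 3724 CPM in females, against 16220 to 20310 CPM in males. Most of the male sum came from 1 gene, LOC409207, a homologue of the synaptic vesicle membrane protein VAT-1, a protein found beyond neurons. It had 817, 875 and 958 CPM in females, against 10602, 12630.2 and 15009.7 CPM in males (log2 fold change -3.85, SE 0.15, edgeR adjusted p = 1.65e-12). LOC102654743, a voltage-gated potassium channel subunit, had 0, 0.147 and 0.759 CPM in females, against 6.36, 15.2 and 22.2 CPM in males (log2 fold change -5.93). Syt7, synaptotagmin 7, a calcium sensor of vesicle release, went the other way with 57.3, 63.3 and 72.8 CPM in females, against 0, 0.0816 and 0.421 CPM in males (log2 fold change 8.40, SE 0.32, edgeR adjusted p = 1.10e-12).

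Among 56 tested genes of cell adhesion and the basement membrane, 21 were higher (37.5%), 16 were lower (28.6%) and 19 were not called. These shares were near the 33.9% and 27.6% of all tested genes. The adhesion proteins of axons Fas1 and Con were higher in females. Fas1 (fasciclin 1) had 475, 523 and 617 CPM in females, against 0, 1.04 and 1.59 CPM in males (log2 fold change 9.21, SE 0.32, edgeR adjusted p = 4.98e-13), and it overlaps 9 genes on the opposite strand. Con (connectin) had 209, 279.9 and 331 CPM in females, against 0, 0 and 0.637 CPM in males (log2 fold change 10.51, SE 0.35, edgeR adjusted p = 3.86e-13). The guidance cue Sema-5c, semaphorin 5c, was lower in females with 5.32, 8.08 and 8.99 CPM, against 90.4, 278 and 326 CPM in males (log2 fold change -5.02), and male 6 of queen 1 was its lowest male.

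The cuticle list had 11 higher (45.8%), 7 lower (29.2%) and 6 not called of 24 tested. CPF1, a structural cuticle protein, had 232, 366 and 405 CPM in females, against 0.616, 1.78 and 3.69 CPM in males (log2 fold change 7.30, SE 0.33, edgeR adjusted p = 8.06e-12). Other cuticle genes gave the opposite: Cpap3-b, with peritrophin-like chitin-binding domains, had 0, 0 and 0.279 CPM in females, against 9.79, 23.3 and 28.4 CPM in males (log2 fold change -7.62), and CPR13 had 1.05, 2.15 and 2.80 CPM in females, against 53.0, 81.8 and 200.05 CPM in males (log2 fold change -5.66). Muscle genes had 5 higher (29.4%), 7 lower (41.2%) and 5 not called of 17 tested. The myosin light chain Mlc2 had 11.9, 17.4 and 34.4 CPM in females, against 0, 0.463 and 1.54 CPM in males (log2 fold change 5.30), and a titin-like gene, LOC725936, had 0, 0.270 and 0.759 CPM in females, against 2.45, 9.23 and 28.2 CPM in males (log2 fold change -5.29). In each of these genes the 6 females and the 6 males did not overlap. The majority of the muscle list turned under both scalings by totals.

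Cytochrome P450 genes had 11 higher (47.8%), 9 lower (39.1%) and 3 not called of 23 tested, and the sum of the family was 226 to 277 CPM in females, against 1864 to 2289 CPM in males. Cyp314a1, the ecdysone 20-monooxygenase that completes the moulting hormone, accounted for most of the male sum with 8.55, 10.2 and 15.8 CPM in females, against 861, 1227 and 1475 CPM in males (log2 fold change -6.82, SE 0.21, edgeR adjusted p = 1.62e-13). CYP303A1 had 14.2, 17.5 and 36.3 CPM in females, against 0, 0 and 0.163 CPM in males, a ratio of 475 (95% exact counting interval 85.04 to 18784). Without male 6 of queen 1, 13 of 24 tested P450 genes were higher and 9 lower, and the median was 1.37, next to 0.67 with it.

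Secreted proteases, carriers and transporters were divided too. Serine proteases and serpins were 33.3% higher and 27.3% lower, nearly the 33.9% and 27.6% of all tested genes. Solute transporters were 41.2% higher and 32.4% lower, and protein kinases 23.6% and 30.3%. Chemosensory and odorant-binding proteins were 37.5% higher and 37.5% lower. Of 33 tested serine proteases and serpins, 11 were higher, 9 were lower and 13 were not called: SP44 had 40.2, 51.3 and 62.3 CPM in females, with no count in any of the 6 males, at least 63.2-fold higher, and SPH55, a protease homologue, had 0, 0.292 and 0.590 CPM in females, against 11.4, 29.9 and 33.3 CPM in males (log2 fold change -6.42). Of 8 tested chemosensory and odorant-binding proteins, 3 were higher, 3 were lower and 2 were not called. CSP3, a small carrier of lipophilic ligands, had 132, 149.6 and 177 CPM in females, with no count in any of the 6 males, at least 187-fold higher, while chemosensory protein 5 (LOC751767), whose knockdown disturbs the embryonic integument of the honeybee, had 17.6, 26.3 and 32.8 CPM in females, against 296, 436 and 758 CPM in males (log2 fold change -4.21, SE 0.27, edgeR adjusted p = 4.15e-10). Of 170 solute transporters, 70 were higher, 55 were lower and 45 were not called. A pair of ABC transporters of the G family, both annotated as member 20-like, were both higher in females: LOC409666 had 389.9, 885 and 939 CPM in females, against 0, 0.418 and 1.07 CPM in males (log2 fold change 10.78, SE 0.37, edgeR adjusted p = 5.08e-13), and LOC550941 had 34.02, 53.0 and 63.7 CPM in females, with no count in any of the 6 males, at least 64.1-fold higher. The trehalose transporter Tret1, which moves the blood sugar of insects, had 3.34, 4.04 and 5.31 CPM in females, against 91.2, 221 and 279 CPM in males (log2 fold change -5.63). Of 254 protein kinases, 60 were higher, 77 were lower and 117 were not called, with the majority turned under scaling by totals.

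Odorant, gustatory and ionotropic receptors were mostly too low to test, 15 of 109 listed, and 4 were higher, 10 were lower and 1 was not called. Of 17 nuclear receptors and hormone genes, 7 were higher, 4 were lower and 6 were not called (41.2% higher, against 33.9% of all tested genes), with a median of 0.78. Without male 6 of queen 1, 6 were higher and 5 lower of 18, and the median was 0.50.

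Lists of genes used by tissues other than the embryo were checked beside these results. The yolk receptor of the oocyte, yl (yolkless), was the single gene of the eggshell and follicle list, with 26.4, 38.3 and 50.1 CPM in females, against 1225, 1319 and 1451 CPM in males (log2 fold change -5.07, SE 0.17, edgeR adjusted p = 4.64e-13). Of 12 tested adult storage and food proteins of 29 listed, 6 were higher, 5 were lower and 1 was not called (8 higher and 5 lower of 13 without male 6 of queen 1), and the list's sum was 134 to 184 CPM in females, against 169 to 246 CPM in males. Hex110, a larval storage hexamerin, had 5.36, 7.73 and 15.9 CPM in females, against 0, 0.132 and 1.05 CPM in males (log2 fold change 4.98). The major royal jelly protein Mrjp8 had 0.313, 0.791 and 1.47 CPM in females, against 3.43, 7.41 and 14.2 CPM in males (log2 fold change -3.29), and A4, an apolipophorin-III-like lipid carrier, had 4.27, 7.75 and 10.02 CPM in females, against 105, 112 and 143 CPM in males (log2 fold change -3.95). Of 31 tested sperm and testis genes of 43 listed, 17 were higher, 5 were lower and 9 were not called, with a sum of 746 to 1014 CPM in females, against 972 to 1174 CPM in males. LOC412041, annotated as testis-specific serine/threonine-protein kinase 1-like, had 23.1, 29.8 and 50.04 CPM in females, against 0, 0 and 0.653 CPM in males (log2 fold change 6.73, SE 0.46, edgeR adjusted p = 9.16e-10). Whether RNA of such other cells takes part in any result was not tested.

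A few genes made up much of each library. The 10 most abundant genes took 19.4% ± 1.47 of counts in females, against 22.9% ± 1.19 in males (SD, n = 6 each; two-sided exact permutation p = 0.00216, and 0.820 as a share of the library total). LOC100578903, uncharacterized, on linkage group 5 from 1971336 to 1975483, led in both sexes and was not called, with 96282, 120118 and 133732 CPM in females, against 73384, 87891 and 178406 CPM in males (log2 fold change 0.21, SE 0.22, edgeR adjusted p = 0.38). The next genes of the females were LOC102655058, uncharacterized, with 6138, 9174 and 10042 CPM in females, against 1932, 2765 and 5023 CPM in males (log2 fold change 1.46), and LOC409681, RWD domain-containing protein 1-like, with 5594, 7762 and 8575 CPM in females, against 1506, 2111 and 3519 CPM in males (log2 fold change 1.67). These neighbours overlap on linkage group 15, the first ending at 8810585 and the second starting at 8810501, so their reads may be shared. LOC411450, a probable RNA helicase of the DDX43 type, had 3342, 4724 and 5829.9 CPM in females, against 92.4, 113 and 169 CPM in males (log2 fold change 5.33, SE 0.21, edgeR adjusted p = 1.80e-12). LOC551774, uncharacterized, had 3376, 3670.4 and 4190.0 CPM in females, against 885, 943 and 1008 CPM in males (log2 fold change 1.98). Each of these 4 genes was above every male in every female.

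Behind LOC100578903 and tral, the most abundant genes of the males were LOC102654857, with 578, 1067 and 1433 CPM in females, against 10345, 29542 and 39681 CPM in males (log2 fold change -4.74), and LOC102655096, with 2612, 3221 and 4337 CPM in females, against 7097, 28529.7 and 41372 CPM in males (log2 fold change -3.03), both uncharacterized lncRNA genes. The lowest male of these genes was again above the highest female. Further down, the genes lowest in females relative to males were uncharacterized or of scattered function. LOC411557, FAM46A-like, of a family of poly(A) polymerases, had 4.44, 6.37 and 8.24 CPM in females, against 456, 2432 and 3172 CPM in males (log2 fold change -8.39, SE 0.44, edgeR adjusted p = 3.95e-11). LOC551180, an aminopeptidase N-like gene, had 1.47, 2.31 and 3.97 CPM in females, against 411, 529 and 604 CPM in males (log2 fold change -7.71). LOC100577235, with SET and MYND domains, had 5.89, 7.33 and 8.49 CPM in females, against 1176, 1322 and 1524 CPM in males (log2 fold change -7.49, SE 0.17, edgeR adjusted p = 1.83e-14), and LOC725038, a homologue of the sterol carrier NPC2, had 2.61, 4.14 and 4.47 CPM in females, against 457, 553 and 723 CPM in males (log2 fold change -7.19). For each of these the sexes were separated by a wide gap. Among uncharacterized genes, LOC100576271 had 9.80, 11.05 and 11.9 CPM in females, against 2018, 3215 and 3383 CPM in males (log2 fold change -8.11, SE 0.20, edgeR adjusted p = 1.83e-14), and LOC100576535 had 0, 0.126 and 0.261 CPM in females, against 37.9, 57.8 and 67.5 CPM in males (log2 fold change -8.70). LOC102655405 had 2.08, 2.64 and 3.24 CPM in females, against 429.5, 514 and 709 CPM in males (log2 fold change -7.64).

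The lncRNA genes differed in number and in share in opposite ways. Of 776 tested, 352 were higher, 284 were lower and 140 were not called (45.4% higher, 36.6% lower), with a median log2 fold change of 0.49, and 244 higher and 207 lower genes passed in both queens without overlap. Over all tested genes 33.9% were higher and 27.6% lower. Without male 6 of queen 1, 387 were higher and 287 lower of 826 tested lncRNA genes, and the median was 0.76. Yet lncRNA took 2.07% ± 0.177 of counts in females, against 6.08% ± 2.11 in males (SD, n = 6 each; two-sided exact permutation p = 0.00216; 0.1 within each queen). Male 6 of queen 1 had the lowest male share, 2.58%, and the female minus male difference of -4.01 points was -4.71 without it. The abundant LOC102654857 and LOC102655096 alone took 2.29% ± 0.952 and 2.25% ± 1.02 of the counts of males (SD, n = 6). In females they took 0.126% ± 0.0342 and 0.406% ± 0.0705 (SD, n = 6). Most of the difference in the lncRNA share thus came from these 2 genes. Of the lncRNA genes higher in females, LOC102654991 had 152, 238 and 352 CPM in females, against 0, 0 and 1.59 CPM in males (log2 fold change 10.01, SE 0.50, edgeR adjusted p = 2.37e-11), and LOC102654015 had 57.5, 74.4 and 104 CPM in females, against 0, 0 and 0.358 CPM in males, a ratio of 889 (95% exact counting interval 246 to 7347). Of 2482 tested genes with an uncharacterized product, 931 were higher (37.5%), 829 were lower (33.4%) and 722 were not called. This list holds protein-coding genes and also lncRNA genes, so it overlaps the lncRNA list.

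Of the 2437 genes higher in females that passed in both queens without overlap, 84 had no read counted in any of the 6 males. En and nau, also without a male read, were not called in each queen and are not among them. The 84 genes held 29 protein-coding genes with a described product and 35 lncRNA genes. Their mean levels were 2.00 to 349 CPM in females, with folds of at least 2.46 to 431. Besides genes given above they included Wat, the worker-enriched antennal transcript, with 38.4, 41.9 and 49.7 CPM in females, with no count in any of the 6 males, at least 52.6-fold higher, and the uncharacterized LOC724645, with 33.2, 41.8 and 51.6 CPM in females, with no count in any of the 6 males, at least 51.8-fold higher. Of these 84 genes 21 had no count in any of the 12 embryos at 24 h AEL, and 31 had none in any male at 72 h AEL. Of the 1958 genes lower in females, 1 had no count in any of the 6 females. It was LOC100576593, uncharacterized, with 2.86, 6.03 and 8.48 CPM in males, at least 13.7-fold lower in females. Male libraries held fewer counts, with a mean of 4878462 against 6088582 in females. How far this depth entered the numbers of genes without a count was not tested.

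Genes of every linkage group took part. The share of tested genes higher in females lay between 29.9% and 37.2% on the 16 linkage groups, around the 33.9% of all tested genes, and higher calls outnumbered lower ones on 14 of them. The others were linkage group 13, with 32.8% higher and 39.8% lower of 241, and linkage group 7, with 31.3% higher and 32.1% lower of 396. Among 590 unplaced genes 40% were higher and 21.4% lower.

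At 24 h AEL the same genes scarcely differed between the sexes, and at 72 h AEL most still did. Of the 2437 genes higher in females at 48 h, 1783 could be tested at 24 h, where 1 was higher and 8 were lower in females, against 9 (0.11%) and 32 (0.39%) of all 8203 tested. At 72 h 1882 of 2313 tested (81.4%) were higher and 43 lower, against 40.1% and 25.8% (65.9% together) of all 8977 tested. Of the 1958 genes lower in females at 48 h, 1953 could be tested at 24 h, where 1 was higher and 4 were lower. At 72 h 1373 of 1922 tested (71.4%) were lower and 77 higher. The sets were chosen at 48 h, and the embryos of the other times are separate individuals of the same queens. Depth differed widely at 72 h. Male libraries of that time held 1195774 to 2008560 counts (19.7% to 30.4% of the library totals), against 5600680 to 7345814 (61.8% to 69.6%) in females. How far the calls and levels at 72 h depend on this was not tested.

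Set beside each other over time, with CPM scaled over all 36 embryos, the genes higher in females had a median level of 6.36, 32.4 and 26.7 CPM at 24, 48 and 72 h in females, against 6.27, 4.11 and 5.09 CPM in males. These genes were chosen by their values at 48 h, so the medians at that time are a description. The genes lower in females had medians of 55.4, 10.2 and 18.9 CPM in females, against 57.9, 74.4 and 72.3 CPM in males. They too were chosen by their values at 48 h.

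**Figure D5:**
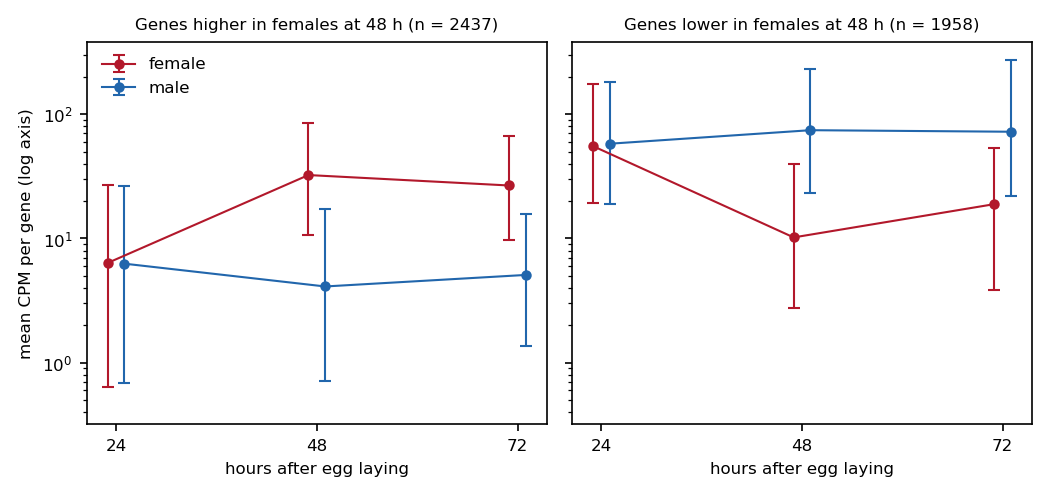
Points are medians and bars the quartiles, over genes, of the mean CPM of 6 embryos, on a log axis against hours after egg laying, female and male points side by side. The left panel follows the 2437 genes higher in females at 48 h and the right panel the 1958 genes lower. The sexes are close at 24 h (6.36 and 6.27 CPM on the left, 55.4 and 57.9 CPM on the right) and are apart at 48 and 72 h.

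Single genes gave the same pictures. LOC726124, the run-like factor, had medians (lowest to highest of 6) of 0 (0 to 0.175), 343 (192 to 516) and 13.9 (12.2 to 53.8) CPM at 24, 48 and 72 h in females, against 0.195 (0 to 0.317), 0 (0 to 0) and 3.36 (0 to 65.2) CPM in males. Kr had 9.38 (6.89 to 11.6), 555 (351 to 613) and 244 (97.2 to 465) CPM in females, against 10.8 (8.49 to 15.6), 16.7 (4.42 to 20.6) and 23.9 (17.7 to 57.6) CPM in males. EloA had 31.3 (26.9 to 32.05), 3099.5 (2110.1 to 3683) and 172 (158 to 207) CPM in females, against 32.4 (26.9 to 36.5), 31.3 (19.03 to 42.3) and 33.0 (14.6 to 261) CPM in males. In males at 48 h all 3 genes were far below the females, and at 72 h the male ranges reached the female ranges for LOC726124 and EloA but not for Kr. For mael the values were 12572 (11185 to 14594), 847 (444 to 1159) and 104 (92.7 to 148) CPM in females, against 13191 (12218 to 13361), 21612 (18098 to 32749.8) and 22914 (16746 to 24683) CPM in males. For tral they were 9819 (8742 to 11231), 476 (391 to 548) and 379 (358 to 465) CPM in females, against 11289 (10611 to 12777), 32386 (18207 to 37691) and 60121 (49452 to 67802) CPM in males. The RNA of both was abundant in either sex at 24 h and in males at each of the 3 times.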

How the data were processed

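Single embryos were lysed whole and their RNA was amplified as full-length cDNA (SMART-Seq v4) before library preparation. The authors deposited 2 tables, one of raw counts of reads per gene and one of RPKM values. Reads were trimmed with cutadapt, filtered for quality and aligned with TopHat2, keeping only unambiguous alignments, which lowers counts of near-identical genes. The submitters' processing notes also name bcl2fastq 2.16.0.10, and gene models and products come from the deposited annotation of Amel_4.5. The counting program and its strand setting are not given in the sources used here. Sex, queen and time were taken from the labels. The members and the 45 gene lists were chosen with earlier results of these data known.

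Counts of the 12 embryos at 48 h were tested with edgeR 4.0.16 (R 4.3.3) by its quasi-likelihood F-test, with sex and queen as terms, TMM factors, filterByExpr (minimum count 10, total 15) and Benjamini-Hochberg adjustment, and calls needed both an adjusted p below 0.05 and a log2 change beyond 1 in size. Each queen was also fitted alone, and an interaction of sex and queen was fitted. The RPKM values served to derive library totals. For shares of counts an exact permutation test (two-sided, SciPy 1.17.1) was used. Where a sex had no count, folds were taken against 3 counts per library as a lower bound, and with 1 to 3 counts as a ratio with a 95% exact counting interval. These bounds and intervals cover counting error only.

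Genes were named by rule from those called jointly, called in each queen and without overlap: those with the most extreme fold changes of all, in each list and among lncRNA and uncharacterized genes, and the most abundant ones (180 genes). Of the 121 genes named, 29 lie outside the rule. They belong to the small lists of segmentation, Hox, dorsoventral, transcription factor, signalling, germline and histone genes, or are the most abundant gene, and were added after their values were seen. Scripts were tested on simulated counts. Alternatives were DESeq2 1.42.0 (size factors and Wald test), upper-quartile factors, both kinds of library total, an unadjusted p below 0.01, testing without the low-count filter, all 36 embryos, no queen term, and leaving out each embryo. Leaving out embryos for the shares, and for the gene lists, was added after seeing the data. Results for some genes named by the study are not reported here, and no sequence or promoter motif was analysed here.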

Additional observations from a re-analysis of the deposited data

Results flagged for a closer look

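In 25 of 258 groups of 6 embryos (9.69%) the highest or lowest embryo lay further from the next than Dixon's critical value for 6 samples allows. Chance gives about 1 in 20 only for independent, normally distributed groups. These groups share the same embryos, so no comparison with that rate is drawn. For h, Prd, LOC100578920, CYP303A1 and LOC102654991 in males the flag arose because a single male had reads. In 14 of the 25 groups the embryo was male 6 of queen 1. It was the highest male for Dfd (1.79 CPM), dpp (200.4 CPM), LOC100578920 (0.653 CPM), Ago3 (41.1 CPM), stau (2138 CPM), LOC726692 (95.5 CPM), Mcm7 (257.0 CPM), LOC102654012 (5.38 CPM), CYP303A1 (0.163 CPM) and LOC411450 (169.0 CPM). It was the lowest male for htl (65.3 CPM), Ser (141.5 CPM), Sema-5c (90.4 CPM) and LOC100576271 (2018 CPM). For stau the next male was at 872 CPM. For Dfd, LOC726692 and LOC411450 its value was still below every female, and for htl, Ser, Sema-5c and LOC100576271 still above every female.

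Male 8 of queen 1 was the single male with reads of h (0.637 CPM), Prd (0.319 CPM) and LOC102654991 (1.59 CPM), and male 26 of queen 2 was highest for Hex110 (1.05 CPM). Among females, number 30 of queen 2 was lowest for slp (56.7 CPM) and highest for RpS20 (745.6 CPM) and for the share of counts on cytosolic ribosomal proteins (6.47%). Female 7 of queen 1 was highest for Pc (63.6 CPM) and lowest for the share of the mitochondrial genome (0.00596%). Female 8 of queen 1 was highest for LOC408818 (7.37 CPM), and female 29 of queen 2 for CYP303A1 (36.3 CPM). Leaving out the embryo in question changed the call of none of the genes given here, and without female 7 of queen 1 the difference in the share of the mitochondrial genome had an exact permutation p = 0.0606.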

How the results depend on the processing

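No paired analysis was possible because embryo numbers only name embryos, and the females and males of a queen at 48 h share at most 1 number. Under 21 other settings the counts of calls stayed within 1.5 times their value except under scaling by the library totals behind the RPKM values, where genes lower in females numbered 1563 (both queens together) and 1319 (called in each queen). Without 1 embryo, genes higher in females numbered 3076 to 3191 together and 2447 to 2625 in each queen, genes lower 2410 to 2494 and 2017 to 2135, and the interaction called 0 to 0. Without a filter on low counts, 3806 were higher and 2693 lower of 12049. Of 114 named genes that were called, 2 lost the call in a setting that gave them a value, otd1 and SdhA, both under either kind of total. En, lab and nau got no value without the queen term, nor LOC102654012 under the DESeq2 test. Uncalled genes changed sign as the middle of the distribution moved: under totals of deposited counts eve was at 0.21, dpp at 0.053 and nanos at 0.34, and under library totals cad was at 0.24, eve at 0.47, dpp at 0.24, nanos at 0.58 and stau at 0.15 (log2 fold changes).

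As a percentage of the library total in place of the counts, the female minus male difference of the mitochondrial genome was -0.00114 (exact permutation p = 0.0823) and that of the 10 most abundant genes -0.33 (p = 0.820). Without 1 embryo the differences in percentage of counts were -3.84 to -3.07 for the 10 most abundant genes, -2.17 to -1.96 for histones, 2.78 to 3.17 for cytosolic ribosomal proteins, -4.71 to -3.54 for lncRNA, 0.0392 to 0.0507 for mitochondrial ribosomal proteins and -0.00478 to -0.0026 for the mitochondrial genome, whose p was above 0.05 in 8 of 12 cases. The difference in the percentage of listed genes with a count was 10.3 to 11.2 points. Without 1 embryo the median of muscle, kinase, lipid, adhesion, protease, chemosensory and non-Hox homeobox lists changed sign in at least 1 case. Mitochondrial ribosomal proteins turned to 3 higher and 2 lower without female 29 of queen 2. A planned search of promoters for motifs was not run, and without the queen term no counts per queen exist. Male libraries at 48 h, of 3222023 counts or more, limit what a count of 0 allows to 3 counts in that total.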
